A study of Mus musculus with 6 samples.

Results

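The laminins, the nidogens, the proteoglycans perlecan (Hspg2) and agrin (Agrn), and the integrins were compared between lung tumors grown with and without prior lung injury. The members were the protein-coding genes whose symbols name a laminin chain, a nidogen or an integrin subunit, together with Hspg2 and Agrn, which gave 40 of the 31130 genes in the tables. They were 11 laminin chains, 4 genes of nidogens, perlecan and agrin, 18 integrin subunits that bind matrix and 7 integrin subunits of leukocytes. Itgad, the remaining α subunit of the leukocyte β2 family, is not analysed here. The study collected tumor tissue on day 21 from female C57BL/6 mice, aged 6 to 8 weeks, all of which had received LLC cells that express EGFP (the Lewis lung carcinoma line of mice) by injection into the left lung on day 14. The IP + LC group (lung cancer with interstitial pneumonia, 3 tumors) had been given bleomycin, a drug that injures the alveoli and leads to fibrosis, at 2.0 mg/kg body weight by oropharyngeal aspiration at the start of the scheme. In the LC group (lung cancer alone, 3 tumors) saline took its place in the study's scheme. The samples of both groups carry the genotype label WT. The cells of both groups were injected in a basement membrane extract, a material that holds laminin, nidogen and perlecan as proteins and is not itself read as RNA. The labels do not say which animal each tumor came from, so p-values measure the spread between these tumors.

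Laminins are secreted trimers of an α, a β and a γ chain that form the sheet-like network of the basement membrane beneath epithelium and endothelium and around muscle cells. Nidogens and perlecan link this network to the type IV collagen network, and agrin ties it to receptors on the cell. Integrins are pairs of an α and a β subunit in the cell membrane. Those with β1, β4 and most αv partners mostly attach cells to laminin, collagen or fibronectin. Those with β2 or β7 are carried by leukocytes and bind mainly counter-receptors on other cells.

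Each library counted unique molecular identifiers (UMIs), short random tags that mark single RNA molecules at the 3′ end of transcripts. The libraries held 592733 UMIs in LC replicate 1 and 1336919 to 1631066 UMIs in the other 5 tumors. Levels are given as CPM, the UMI count scaled by TMM and by the total over tested genes, and 3 UMIs amounted to 5.17 CPM in LC replicate 1 and to 1.75 to 2.54 CPM elsewhere. LC replicate 1 stood apart from its group: its log2 CPM values correlated across genes with those of the other LC tumors at 0.84 and 0.799, whereas those correlated with each other at 0.962. The test between the groups was therefore run with and without LC replicate 1. The label calls the tissue tumor, but it held normal lung as well, since the summed markers of type 2 alveolar cells ranged from 36697 to 46036 CPM in LC tumors and from 6711 to 12094 CPM in IP + LC tumors. Markers of dividing cells summed to 620 CPM in LC replicate 1, to 128 and 131 CPM in LC replicates 2 and 3, and to 1004 to 1157 CPM in the IP + LC tumors.

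Of the 40 members, 32 had enough UMIs to be tested and 8 did not. By edgeR's quasi-likelihood test with an adjusted p limit of 0.1, 4 of the 32 were higher in IP + LC tumors (12.5%, against 16.8% of the 11240 genes tested): Itgam, Itgb7, Itga5 and Nid1. Lower in IP + LC tumors were 6 members (18.8%, against 19.6% of all genes tested): Itga8, Itga1, Lama2, Lama3, Lama4 and Lamb2. Both shares were near those of all genes. All 3 IP + LC tumors lay above all 3 LC tumors in 7 members (21.9%, against 21.6% of all genes) and below them in 6 (18.8%, against 21.5%). Without LC replicate 1, 11 members were higher (34.4%, against 28.3% of 11748 genes) and 8 were lower (25%, against 28.7%). The 10 members called with all tumors were also called without LC replicate 1, with log2 fold changes of -1.59 for Lama4, -1.92 for Lama3, -1.79 for Lama2, -1.16 for Lamb2 and 0.98 for Nid1, and with those of the integrins given with their levels. In bulk tissue, fewer cells of a type and less RNA per cell cannot be told apart.

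On GRCm38, the called members with higher levels were annotated as genes by GENCODE M21 as follows: Itgam (ENSMUSG00000030786) at chr7:128062640-128118491 on the plus strand, Itgb7 (ENSMUSG00000001281) at chr15:102215995-102231944 on the minus strand, Itga5 (ENSMUSG00000000555) at chr15:103344286-103366763 on the minus strand and Nid1 (ENSMUSG00000005397) at chr13:13437551-13512269 on the plus strand. The members with lower levels included Itga8 (ENSMUSG00000026768) at chr2:12106632-12301922 on the minus strand, Itga1 (ENSMUSG00000042284) at chr13:114953096-115101964 on the minus strand, Lama2 (ENSMUSG00000019899) at chr10:26980036-27619758 on the minus strand, Lama4 (ENSMUSG00000019846) at chr10:38965515-39110188 on the plus strand and Lamb2 (ENSMUSG00000052911) at chr9:108479736-108490530 on the plus strand. Itgam and Itgax lie close together on chromosome 7, where Itgax spans chr7:128129547-128150657, and Itgal lies on the same chromosome at chr7:127296260-127335138.

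By kind of member, all 6 leukocyte integrins tested had positive log2 fold changes, against 51.1% of all genes tested, with a median of 0.54. Of these 6, 2 were called higher (against 16.8% of all genes) and 5 without LC replicate 1 (against 28.3%), where the median was 0.78. Of 14 matrix-binding integrins tested, 5 had positive and 9 negative values, with a median of -0.30, 1 called higher and 2 called lower (against 16.8% and 19.6% of all genes). Without LC replicate 1 the median was -0.43, with 2 called higher and 4 lower (against 28.3% and 28.7% of all genes). That median was -0.0142 after thinning, -0.10 with at least 10 UMIs in every library, -0.15 with library size scaling, -0.18 without LC replicate 3 and -0.14 when IP + LC replicate 1 was left out. After thinning, Itga2, Itga7, Itgb3 and Itgb4 were no longer tested. The filter of at least 10 UMIs dropped these and also Itgav and Itgb6, so the medians of both settings cover fewer genes. The 9 laminin chains tested had a median of -0.34, with 4 called lower (against 19.6% of all genes) and none called higher, and without LC replicate 1 Lama5 and Lamb1 were called higher and 4 lower (against 28.3% and 28.7%). Their median was -0.18 with library size scaling, -0.54 after thinning, and -0.62, -0.63 and -0.14 when LC replicate 2, IP + LC replicate 3 or LC replicate 3 was left out, in that order. The median over all genes tested was 0.02. These medians describe the groups and were not tested against each other.

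**Figure D1:**
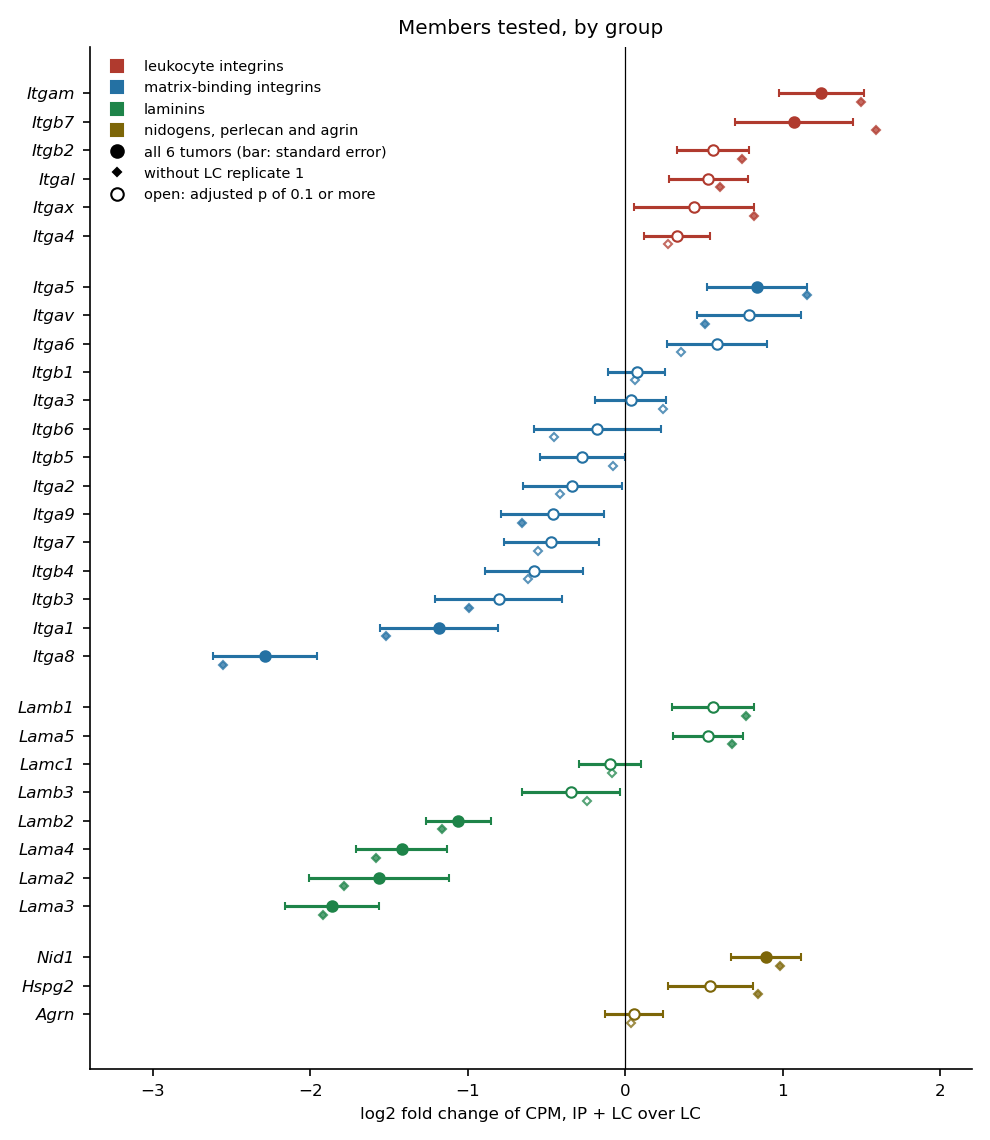
Log2 fold changes of CPM between IP + LC and LC tumors for the members tested and reported, grouped by kind; circles with standard error bars use all 6 tumors, diamonds leave out LC replicate 1, and filled symbols have an adjusted p below 0.1. The 6 leukocyte integrins all lie right of 0, while Itga8 at -2.29 lies farthest to the left, followed by the laminin chains Lama3, Lama2 and Lama4.

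The promoter windows of the 2 leukocyte integrins called higher and the 2 matrix-binding integrins called lower are shown, picked by these calls. Itga5, the matrix-binding integrin called higher, is not among those printed. The windows run from upstream of to just past the RefSeq start of transcription on GRCm38.p6. In that table, 26 of the 40 members had an entry. Itgam lies at chr7:128062390-128062689 on the plus strand, Itgb7 at chr15:102231886-102232185, Itga8 at chr2:12301895-12302194 and Itga1 at chr13:115101915-115102214, the last 3 on the minus strand. Each is printed 5′ to 3′ on the gene's strand, with capitals for matches on either strand to GAGGAA, the core of sites of PU.1, a transcription factor of myeloid and B cells, or to GGGCGG, the GC box.
Itgam: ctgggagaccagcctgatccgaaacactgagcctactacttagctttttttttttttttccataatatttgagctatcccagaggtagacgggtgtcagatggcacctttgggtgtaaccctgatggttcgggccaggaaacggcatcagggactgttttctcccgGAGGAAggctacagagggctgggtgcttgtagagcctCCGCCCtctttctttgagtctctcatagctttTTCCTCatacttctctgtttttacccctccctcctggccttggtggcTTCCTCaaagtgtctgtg
Itgb7: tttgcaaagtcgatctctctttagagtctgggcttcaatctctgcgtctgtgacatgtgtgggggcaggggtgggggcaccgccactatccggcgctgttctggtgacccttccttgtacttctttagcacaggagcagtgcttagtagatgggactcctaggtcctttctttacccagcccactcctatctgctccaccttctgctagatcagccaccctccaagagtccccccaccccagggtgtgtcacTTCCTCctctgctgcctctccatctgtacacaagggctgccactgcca
Itga8: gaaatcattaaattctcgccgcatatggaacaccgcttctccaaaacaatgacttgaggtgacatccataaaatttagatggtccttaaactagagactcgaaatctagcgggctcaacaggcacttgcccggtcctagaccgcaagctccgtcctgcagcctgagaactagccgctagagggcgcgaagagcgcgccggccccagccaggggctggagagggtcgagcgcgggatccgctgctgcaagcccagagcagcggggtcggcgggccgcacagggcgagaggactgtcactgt
Itga1: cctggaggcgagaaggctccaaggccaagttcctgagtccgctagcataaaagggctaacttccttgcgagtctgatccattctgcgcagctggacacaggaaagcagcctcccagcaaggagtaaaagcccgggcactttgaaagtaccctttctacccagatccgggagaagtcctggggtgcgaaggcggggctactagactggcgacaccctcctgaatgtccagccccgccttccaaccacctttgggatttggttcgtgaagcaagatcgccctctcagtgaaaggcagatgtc
Itgam held 3 matches to GAGGAA and 1 to GGGCGG, Itgb7 held 1 match to GAGGAA, and the windows of Itga8 and Itga1 held neither motif. The 4 windows do not stand for their kinds: GAGGAA was matched in 2 of 4 leukocyte integrin windows, not in Itgax and Itga4. It was matched in 5 of 14 matrix-binding integrin windows, among them Itga5, which was called higher, and also in those of Lama2 and Lamb2, which were called lower. A match to GAGGAA stood in 13 of the 26 member windows (50%, against 28.3% of the 32851 windows in the table) and a match to GGGCGG in 14 (53.8%, against 35.7%). TGANTCA, the AP-1 site, was in 2 windows (7.69%, against 7.81%), and TATAAA, the TATA box, was in none (against 13.6%). In the windows printed no match overlapped another, and a match is a description of the sequence only.

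Among the laminin α chains, 3 of the 4 tested were called lower in IP + LC tumors (against 19.6% of all genes tested) and Lama5 was not. Lama4, the α chain of endothelial and mesenchymal basement membranes, measured 39.6, 54.1 and 84.7 CPM in LC replicates 1 to 3 and 21.8, 25.1 and 21.1 CPM in IP + LC replicates 1 to 3. All IP + LC tumors were below all LC tumors, and the LC tumors spread widely while the IP + LC tumors lay close together. The means were 59.5 ± 23.0 CPM and 22.6 ± 2.16 CPM (SD, n = 3 each), a log2 fold change of -1.42 ± 0.29 (SE) with an adjusted p of 0.00826 by edgeR and a range from 4.01e-05 to 0.0944 over the alternatives. Lama3, the epithelial α chain of anchoring laminin, was at 27.6, 31.3 and 35.6 CPM in LC tumors and at 5.80, 9.34 and 10.9 CPM in IP + LC tumors. Its groups were well apart, from 31.5 ± 4.02 CPM to 8.68 ± 2.61 CPM, with a log2 fold change of -1.86 ± 0.30 (adjusted p = 0.00303, range 2.03e-05 to 0.0318).

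Lama2, the α chain of muscle and of mesenchymal cells, was counted with few UMIs: 7, 25 and 48 in LC tumors and 10, 13 and 15 in IP + LC tumors. Relative to depth these were 12.1, 19.6 and 40.7 CPM against 7.25, 7.59 and 10.9 CPM, so that the groups did not overlap although LC replicate 1 lay close to the IP + LC tumors. The log2 fold change was -1.56 ± 0.44 (adjusted p = 0.0296). The call was lost when LC replicate 3 (-0.98), IP + LC replicate 1 (-1.43) or IP + LC replicate 2 (-1.44) was left out and with thinned counts (-1.59).

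Lama5, the α chain found in most adult epithelial and endothelial basement membranes, went the other way in level. It measured 49.9, 39.2 and 32.2 CPM in LC tumors and 58.7, 60.1 and 51.6 CPM in IP + LC tumors, with no overlap and a gap of little width between LC replicate 1 and IP + LC replicate 3. The log2 fold change of 0.52 ± 0.22 did not pass (adjusted p = 0.113) and ranged from 0.36 to 0.68 with 1 tumor left out, passing at 0.68 without LC replicate 1. Lama1, the embryonic α chain, had 1 to 5 UMIs in every tumor and was not tested.

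The make-up of the laminin α transcripts within each tumor also differed between the groups. Lama5 made up 38.2%, 27.0% and 16.4% of laminin α UMIs in LC replicates 1 to 3 and 62.3%, 57.9% and 52.6% in IP + LC replicates 1 to 3. Lama4 made up 30.3%, 37.3% and 43.1% in LC tumors and 23.1%, 24.2% and 21.5% in IP + LC tumors. Lama5 thus held the majority of α chain UMIs in each IP + LC tumor and in none of the LC tumors, on totals of 76 to 232 UMIs per tumor. These UMIs are counted per transcript end and are not divided by length.

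Among the β chains, Lamb2 fell and the share of Lamb1 was higher in each IP + LC tumor. Lamb2, the β chain of mature vessels, smooth muscle and synapses, measured 51.7, 71.3 and 69.5 CPM in LC tumors and 31.2, 29.8 and 32.7 CPM in IP + LC tumors. Its groups were clearly separate and it fell by 1.06 ± 0.21 on the log2 scale, from 64.1 ± 10.9 CPM to 31.2 ± 1.45 CPM (adjusted p = 0.00706, range 7.58e-05 to 0.0603), and by 1.73 after thinning. Lamb1, the broadly expressed β chain, measured 121, 63.5 and 101 CPM against 157, 133 and 125 CPM, with all IP + LC tumors above all LC tumors. Its log2 fold change was 0.56 ± 0.26 (adjusted p = 0.142), and 0.76 without LC replicate 1, where it passed the limit, but 0.32 without LC replicate 2. Lamb1 held 56.5%, 40.3% and 47.2% of laminin β UMIs in LC tumors and 73.7%, 71.8% and 64.4% in IP + LC tumors, while Lamb2 held 24.2%, 45.3% and 32.5% against 14.7%, 16.1% and 16.9%. Lamb3, the β chain that joins Lama3 in epithelial anchoring laminin, overlapped between groups at 22.7 to 43.2 CPM in LC and 22.2 to 36.3 CPM in IP + LC tumors, with a log2 fold change of -0.34 ± 0.31. That value was -0.14 without LC replicate 3, -0.62 without LC replicate 2 and -0.0098 after thinning.

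Of the γ chains, Lamc1, which is part of most laminins, was nearly level. It measured 67.2, 62.7 and 72.9 CPM in LC tumors and 62.4, 70.6 and 55.9 CPM in IP + LC tumors, and its log2 fold change of -0.10 ± 0.20 (adjusted p = 0.74) took the other sign with library size scaling (0.06). Lamc3 had at most 6 UMIs and was not tested.

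**Figure D2:**
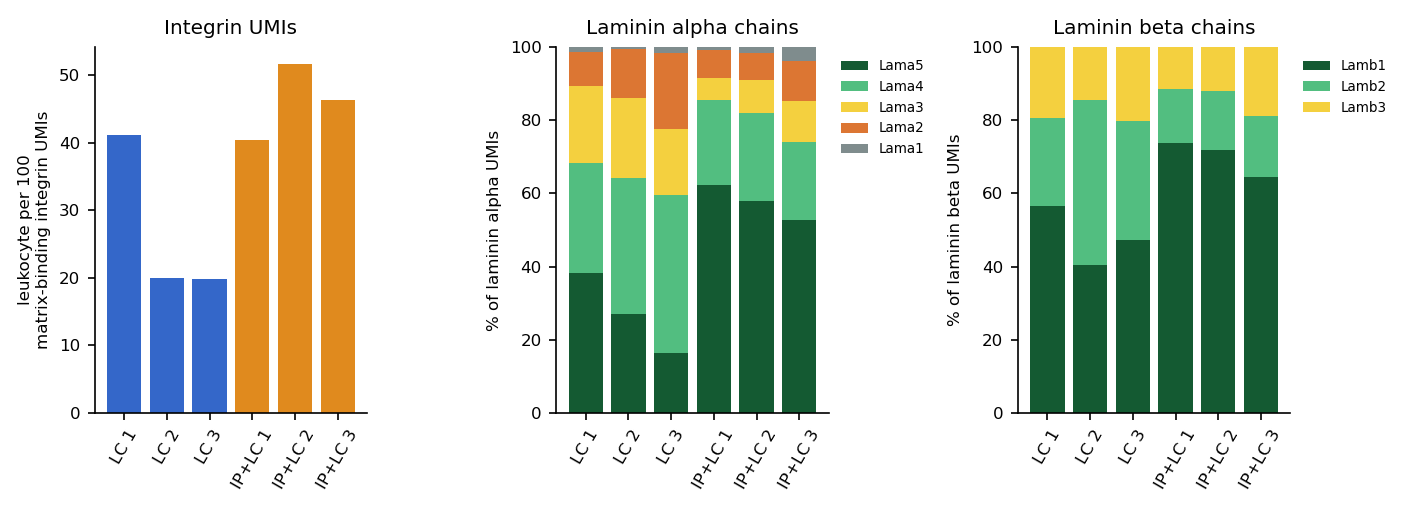
Left, UMIs of the 7 leukocyte integrins per 100 UMIs of the 18 matrix-binding integrins in each tumor; middle and right, shares of laminin α and β chain UMIs in percent. Lama5 makes up 52.6% to 62.3% of α chain UMIs in IP + LC tumors and 16.4% to 38.2% in LC tumors, and LC replicate 1 stands with the IP + LC tumors in the left panel.

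Among the linkers of the basement membrane, Nid1 rose. Nid1, nidogen 1, which bridges laminin and type IV collagen, measured 108, 97.9 and 84.7 CPM in LC tumors and 174, 217 and 147 CPM in IP + LC tumors. All IP + LC tumors were above all LC tumors, and IP + LC replicate 2 was the highest. The means were 97.1 ± 11.9 and 179 ± 35.2 CPM, a log2 fold change of 0.89 ± 0.22 (adjusted p = 0.0183, range 0.000415 to 0.108). The call was lost when the counts were thinned to the smallest library (0.74). Nid2, its paralog, had 1 to 5 UMIs per tumor and was not tested.

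Perlecan, the large heparan sulfate proteoglycan encoded by Hspg2, measured 63.7, 36.04 and 34.7 CPM in LC tumors and 61.6, 71.2 and 55.2 CPM in IP + LC tumors. LC replicate 1 lay within the IP + LC range and the other LC tumors below it, so that the log2 fold change was 0.54 ± 0.27 (adjusted p = 0.168) with all tumors and 0.84, past the limit, without LC replicate 1. Leaving out 1 of the other tumors gave 0.38 to 0.64. Agrin, the proteoglycan that clusters receptors at the neuromuscular junction and binds laminin, was level at 49.2 ± 2.34 and 51.3 ± 2.23 CPM, with a log2 fold change of 0.06 ± 0.19 that turned to -0.006 under upper quartile scaling.

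None of the laminin-binding integrin subunits passed the test with all tumors, TMM scaling and the filter on low counts. Itga3, which pairs with β1 in epithelium, averaged 96.1 ± 24.5 and 97.2 ± 5.10 CPM, a log2 fold change of 0.03 ± 0.23 that was -0.03 under upper quartile scaling. Itga6, which pairs with β1 or β4, measured 53.4, 114 and 104 CPM in LC tumors and 175, 144 and 95.8 CPM in IP + LC tumors, with overlap and a log2 fold change of 0.58 ± 0.32 (adjusted p = 0.207). It was 0.35 without LC replicate 1 and passed with library size scaling (0.75) and without a filter on low counts (0.70). Itga7, the laminin receptor of muscle, had 7 to 24 UMIs per tumor with a log2 fold change of -0.47 ± 0.30, which was -0.24 without LC replicate 2. Itgb4, the β subunit of hemidesmosomes, had 6, 16 and 13 UMIs in LC tumors and 12, 12 and 10 in IP + LC tumors, which did not overlap in CPM, and its value of -0.58 ± 0.31 did not pass (adjusted p = 0.198).

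Of the collagen-binding subunits, Itga1 fell with all tumors included, and LC replicate 1 did not share the level of its group. Itga1, the α1 subunit that binds type IV collagen and is found on smooth muscle, fibroblasts and small vessels, measured 91.3, 271 and 274 CPM in LC replicates 1 to 3 and 96.4, 81.1 and 106 CPM in IP + LC replicates 1 to 3. LC replicate 1 was inside the IP + LC range while LC replicates 2 and 3 were far above it. Its log2 fold change was -1.18 ± 0.37 (adjusted p = 0.0432) with all tumors and -1.52 without LC replicate 1. Leaving out any 1 of the other 5 tumors ended the call, with values from -1.24 to -0.98 and adjusted p from 0.11 to 0.175. Itga2, the α2 subunit of epithelium and platelets, had 7 to 23 UMIs and a log2 fold change of -0.34 ± 0.31, which was -0.10 without LC replicate 3 and -0.17 with library size scaling. Itga10 and Itga11 had at most 4 UMIs in any tumor and were not tested.

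The subunits that recognize the RGD sequence of fibronectin, vitronectin and nephronectin moved in both directions. Itga8, the α8 subunit of smooth muscle and myofibroblast-like cells that binds nephronectin, measured 60.3, 142 and 130 CPM in LC tumors and 26.8, 19.3 and 23.2 CPM in IP + LC tumors. Every IP + LC tumor was below every LC tumor, and LC replicate 1 was the lowest of its group. The means fell from 111 ± 44.0 to 23.1 ± 3.78 CPM, the log2 fold change of -2.29 ± 0.33 had the largest size among the 32 members tested (adjusted p = 0.00197, range 8.37e-12 to 0.0254), and it was -2.55 without LC replicate 1.

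Itga5, the α5 subunit of the main fibronectin receptor, rose by a call that most changes of the input ended. It measured 43.0, 28.2 and 15.3 CPM in LC tumors and 48.6, 47.3 and 50.1 CPM in IP + LC tumors, so that the IP + LC tumors were nearly equal and the LC tumors were spread out below them. The rise was 0.84 ± 0.32 (adjusted p = 0.0798) and 1.15 without LC replicate 1. The call was lost when any 1 of the other 5 tumors was left out (0.49 to 0.87, the lowest without LC replicate 3), with upper quartile scaling (0.77), with thinned counts (0.98) and with DESeq2 (0.80, adjusted p = 0.137, with a range from 0.00122 to 0.216 over all alternatives). With the replicate number as a block, the value was 0.86 and the adjusted p was 0.105.

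Itgav, the αv subunit that pairs with several β subunits, measured 15.5, 44.7 and 53.4 CPM in LC tumors and 68.9, 70.0 and 67.5 CPM in IP + LC tumors. The groups did not overlap, LC replicate 1 had 9 UMIs, and the log2 fold change of 0.79 ± 0.33 did not pass (adjusted p = 0.111) but passed at 0.50 without LC replicate 1 and at 1.05 without LC replicate 3. Of its partners, Itgb5 ranged from 76.3 to 117 CPM in LC and from 52.2 to 90.0 CPM in IP + LC tumors (-0.27 ± 0.27, and -0.41 to -0.05 with 1 tumor left out), Itgb6, the epithelial subunit that activates latent TGF-β, from 8.61 to 35.6 and from 16.7 to 29.8 CPM (-0.18 ± 0.40, and -0.45 to 0.19 with 1 tumor left out), and Itgb3, the subunit of platelets and osteoclasts, had 3 to 17 UMIs (-0.80 ± 0.40, adjusted p = 0.172; -0.99 and past the limit without LC replicate 1, -0.48 without LC replicate 3). Itgb8 had 1 to 17 UMIs and Itga2b, the platelet α subunit, 2 to 15 UMIs, and neither was tested. For each 100 UMIs of Itgav there were 389, 318 and 243 UMIs of Itga8 in LC tumors and 38.9, 27.5 and 34.4 in IP + LC tumors, so the ratio was lower in every IP + LC tumor than in any LC tumor.

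Itgb1, the β1 subunit shared by most matrix-binding α subunits, was nearly level. It measured 396, 438 and 392 CPM in LC tumors and 432, 429 and 428 CPM in IP + LC tumors, with a log2 fold change of 0.07 ± 0.18 (adjusted p = 0.80). Relative to 100 UMIs of Itgb1, Itga1 was at 23.0, 61.9 and 69.8 in LC tumors and at 22.3, 18.9 and 24.7 in IP + LC tumors, with LC replicate 1 again within the IP + LC range. Itga9, an α subunit of smooth muscle, lymphatic endothelium and neutrophils, measured 20.7, 37.6 and 45.8 CPM against 36.3, 19.8 and 23.2 CPM with overlap (-0.46 ± 0.33, adjusted p = 0.327), and passed at -0.66 without LC replicate 1. It was -0.25 when LC replicate 3 or IP + LC replicate 2 was left out.

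**Figure D3:**
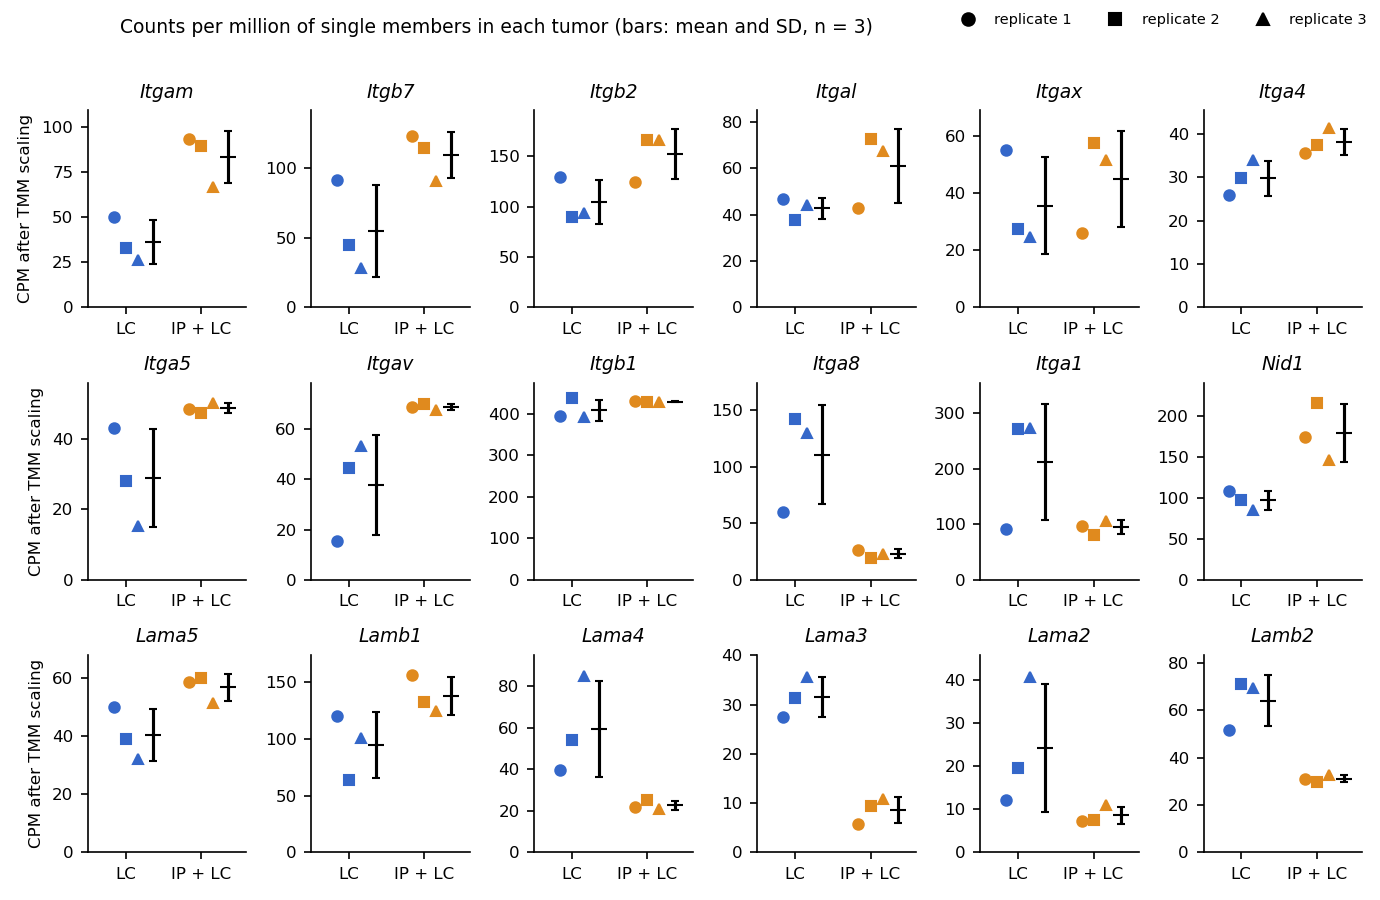
CPM after TMM scaling of 18 members in each of the 3 LC (blue) and 3 IP + LC (orange) tumors, with the mean and SD of each group as black bars and axes from 0. In Itga1, Itgb7, Itgax and Itgb2, LC replicate 1 (circle) reaches the IP + LC range, whereas in Itga8, Lama3, Lama4 and Lamb2 all LC tumors lie above all IP + LC tumors.

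In the β2 family of leukocytes, Itgam rose with and without LC replicate 1. Itgam, the αM subunit (CD11b) of macrophages, monocytes and neutrophils that binds ICAM-1, fibrinogen and complement fragments, measured 49.9, 32.9 and 26.3 CPM in LC tumors and 93.5, 89.3 and 66.8 CPM in IP + LC tumors. The groups were apart, with LC replicate 1 the highest LC tumor and IP + LC replicate 3 the lowest of its group. The means were 36.4 ± 12.2 and 83.2 ± 14.4 CPM, with a log2 fold change of 1.24 ± 0.27 (adjusted p = 0.0111, range 4.93e-05 to 0.064) and of 1.50 without LC replicate 1. In GENCODE M21, 68.7% of the exon bases of Itgam are shared on the same strand with the gene model Gm49368. To that model 2 UMIs were assigned in IP + LC replicate 1 and none in the other tumors, and reads that fall in both models may have been left out of the count.

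Itgb2, the β2 subunit (CD18) that every αL, αM and αX chain needs, measured 129, 90.1 and 94.1 CPM in LC tumors and 124, 166 and 166 CPM in IP + LC tumors. LC replicate 1 was above IP + LC replicate 1, and the log2 fold change of 0.56 ± 0.23 lay just outside the limit (adjusted p = 0.1005), whereas without LC replicate 1 it was 0.74 and passed. In all it passed under 6 of 15 alternatives, and it was 0.155 after thinning. Itgal, the αL subunit (CD11a) of lymphocytes and other leukocytes, measured 46.5, 37.6 and 44.1 CPM against 42.8, 72.4 and 67.5 CPM, with IP + LC replicate 1 among the LC tumors, and its log2 fold change was 0.53 ± 0.25 (adjusted p = 0.153). Its call was gained without LC replicate 1 (0.60) and without IP + LC replicate 1 (0.75). Itgax, the αX subunit (CD11c) of dendritic cells and alveolar macrophages, measured 55.1, 27.4 and 24.6 CPM against 26.1, 57.8 and 51.6 CPM, so that 1 tumor of each group stood with the other group, and the log2 fold change of 0.43 ± 0.38 (adjusted p = 0.429) became 0.82 and passed without LC replicate 1. It was 0.21 when LC replicate 3 or IP + LC replicate 2 was left out, and 0.10 after thinning.

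The α4 and β7 subunits form the leukocyte receptors for VCAM-1, fibronectin and the gut addressin, and β7 also pairs with αE, the receptor for E-cadherin. Itgb7 measured 91.3, 44.7 and 28.0 CPM in LC tumors and 123, 114 and 90.8 CPM in IP + LC tumors. LC replicate 1 was level with IP + LC replicate 3 and the other LC tumors were far lower. Its log2 fold change was 1.07 ± 0.37 (adjusted p = 0.0623) with all tumors and 1.59 without LC replicate 1. The call was lost when any 1 of the other 5 tumors was left out (0.73 to 1.19, adjusted p from 0.106 to 0.21) and when the counts were thinned (0.66). Itga4 measured 25.8, 29.8 and 33.9 CPM against 35.5, 37.4 and 41.4 CPM, without overlap but with a small step, and its log2 fold change of 0.33 ± 0.21 did not pass (adjusted p = 0.272) and was 1.02 after thinning. Itgae, the αE subunit of intraepithelial lymphocytes, had 3 to 10 UMIs per tumor and was not tested.

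Set against each other within each tumor, leukocyte integrins made up 41.2, 19.95 and 19.8 UMIs per 100 UMIs of matrix-binding integrins in LC replicates 1 to 3 and 40.5, 51.6 and 46.4 in IP + LC replicates 1 to 3. LC replicates 2 and 3 were well below the IP + LC tumors, while LC replicate 1 fell between IP + LC replicates 1 and 3. Since Itgb1 supplied much of the denominator, the ratio was also taken without it, and the order was similar at 69.2, 29.7 and 28.3 against 66.5, 87.2 and 78.1. In CPM, the leukocyte subunits summed to 403, 266 and 259 in LC tumors and to 447, 542 and 489 in IP + LC tumors without overlap. The matrix-binding subunits summed to 978, 1331 and 1309 against 1104, 1051 and 1055, where LC replicate 1 was the lowest of all tumors.

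Markers of leukocytes did not all move in the direction of the leukocyte integrins. Beside the marker counts here and below, 16.8% of all genes tested were called higher and 19.6% lower. Without LC replicate 1 these shares were 28.3% and 28.7%. Macrophage markers summed to 13352 to 15947 CPM in LC and 8166 to 9841 CPM in IP + LC tumors, with 4 of 12 called higher and 1 called lower (8 and 2 without LC replicate 1). The sum was ruled by Lyz2, which type 2 alveolar cells also make and which was the gene called lower (12374 to 13592 against 5473 to 7043 CPM). Without Lyz2, a choice made after its values were seen, the macrophage markers summed to 2530, 978 and 737 CPM in LC tumors and to 2479, 3141 and 2798 CPM in IP + LC tumors, so that LC replicate 1 stood with the IP + LC tumors as it did for Itgb7, Itgax and Itgb2. Per 100 UMIs of these macrophage markers, Itgam amounted to 1.97, 3.37 and 3.56 UMIs in LC tumors and 3.77, 2.84 and 2.39 UMIs in IP + LC tumors, which overlapped. Per 100 UMIs of the full list with Lyz2, it amounted to 0.313, 0.246 and 0.183 UMIs in LC tumors and 1.15, 1.04 and 0.679 UMIs in IP + LC tumors without overlap. The ratio thus depended on whether Lyz2 was counted.

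Among other leukocytes, neutrophil markers summed to 835 to 2011 CPM in LC and 279 to 362 CPM in IP + LC tumors (3 of 7 tested called lower), and alveolar macrophage markers to 1856 to 2341 and 280 to 534 CPM (11 of 11 lower). Dendritic cell markers summed to 165 to 204 and 209 to 300 CPM (2 higher and 2 lower of 6, or 2 and 4 without LC replicate 1), T cell markers to 155 to 190 and 117 to 217 CPM (1 lower of 7), B cell markers to 215 to 308 and 44.2 to 158 CPM (5 lower of 6) and NK cell markers to 143 to 216 and 93.7 to 118 CPM (2 lower of 4). Platelet markers, of which 2 of 9 found had at most 3 UMIs in every tumor, summed to 147 to 226 and 53.1 to 93.5 CPM. The part of these cells in the integrin results was not tested.

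On the side of the tissue, markers of endothelium and smooth muscle fell with the laminin and integrin subunits that fell. Endothelial markers summed to 2340 to 4065 CPM in LC and 665 to 900 CPM in IP + LC tumors (14 of 14 lower), and smooth muscle markers to 775 to 1225 and 241 to 328 CPM (7 of 7 tested lower). Per 100 endothelial marker UMIs, Lama4 amounted to 1.69, 1.33 and 2.33 UMIs in LC and 2.66, 3.77 and 2.34 UMIs in IP + LC tumors, and Itga1 to 3.90, 6.67 and 7.54 against 11.8, 12.2 and 11.8. Both genes were thus lower in mean CPM and higher relative to endothelial markers in the IP + LC tumors. For Lama4 the ratios of the groups nearly touched, and for Itga1 the CPM of LC replicate 1 lay within the IP + LC range. Per 100 smooth muscle marker UMIs, Itga8 amounted to 7.78, 11.6 and 12.2 UMIs in LC and 8.31, 7.99 and 7.08 in IP + LC tumors, which overlapped through LC replicate 1. Lamb2 amounted to 6.67, 5.82 and 6.54 against 9.66, 12.3 and 9.96, which did not.

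Epithelial and stromal markers gave the same kind of background. Type 1 alveolar markers summed to 3451 to 6600 and 1442 to 2011 CPM (8 of 10 lower), type 2 alveolar markers had 9 of 10 lower, and airway markers summed to 49433 to 58364 and 3402 to 7276 CPM (8 of 8 tested lower). Per 100 type 1 marker UMIs, Lama3 amounted to 0.669, 0.908 and 0.539 UMIs in LC and 0.360, 0.648 and 0.542 UMIs in IP + LC tumors, with overlap. Fibroblast markers summed to 2194 to 2862 and 2087 to 2129 CPM, with 2 called higher and 8 lower of 12, and mesothelial markers to 87.8 to 194 and 42.6 to 58.7 CPM (3 of 3 tested lower). Cardiac muscle markers were also present and lower (6 of 6 tested, 851 to 1808 against 143 to 339 CPM), skeletal muscle and Schwann cell markers each had 1 gene tested, which was lower, and Sox10 was at 0 in every tumor. Of the markers of dividing cells, 6 of 8 were called higher. The part of these cells in the laminin and integrin results was not tested.

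The proteins that switch integrins on and tie them to the cytoskeleton include forms of blood cells and forms of other tissues. Of 31 activators and adaptors tested, 8 were higher and 6 lower (against 16.8% and 19.6% of all genes). Without LC replicate 1 these counts were 12 and 7 (against 28.3% and 28.7%). With all tumors the median log2 fold change was 0.14. The 3 with the largest change all fell: Lims2, encoding the adaptor PINCH2, with -2.44 (adjusted p = 0.00149), Rasgrp2, encoding the activator of Rap1 in platelets and neutrophils, with -1.79 (adjusted p = 0.00137), and Tns1, encoding tensin 1, with -1.67 (adjusted p = 0.00225). Among those that rose, picked here after their values were seen, were Fermt3, the kindlin of blood cells, which had 12, 31 and 23 UMIs in LC tumors and 43, 71 and 51 in IP + LC tumors (0.76 ± 0.23, adjusted p = 0.038), Fyb (1.62) and Apbb1ip (1.17), adaptors of leukocyte integrins, and Actn1 (1.21), which encodes an α-actinin. Among other genes of this list, Vcl rose (1.54), while Parvg (0.50), Skap2 (0.19) and Skap1 (-0.34) did not pass. Fermt2, the kindlin of other tissues, had 57, 325 and 317 UMIs against 149, 200 and 172 and fell by 0.84 ± 0.34 (adjusted p = 0.0949), with LC replicate 1 at 98.2 CPM, below all IP + LC tumors (108 to 125 CPM) and far from the other LC tumors (255 and 269 CPM). Tln1, encoding the talin that both kinds of integrin use, had a value of 0.31 ± 0.23 (adjusted p = 0.358), and passed at 0.52 without LC replicate 1.

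Among ligands on other cells, 1 of 7 tested was higher and 4 were lower (against 16.8% and 19.6% of all genes), with a median of -0.89. Icam2, the endothelial ligand of the αL subunit, fell (-2.08, adjusted p = 0.00101), Jam2, a junctional ligand of α4, did too (-1.35, adjusted p = 0.0131), and Cdh1, E-cadherin, the ligand of αE, as well (-0.94, adjusted p = 0.0344). The gene that rose was Vcam1, the ligand of α4 with β1 or β7, which had 60, 104 and 110 UMIs in LC tumors and 222, 290 and 221 in IP + LC tumors (0.83 ± 0.19, adjusted p = 0.0134). Icam1, the ligand of αL and αM, had 6 to 12 UMIs in LC and 13 to 15 UMIs in IP + LC tumors (0.10 ± 0.34), and Madcam1, the gut addressin, had at most 1 UMI.

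Ligands of the matrix also went both ways, with a median of 0.39. Of 11 tested, 4 were higher and 4 lower (against 16.8% and 19.6% of all genes). Without LC replicate 1 the counts were 6 and 4 (against 28.3% and 28.7%). Vtn, vitronectin, fell (-2.44, adjusted p = 0.00149) and Postn, periostin, likewise (-1.64, adjusted p = 0.00154), whereas Tnc, tenascin C, rose by 1.71 (adjusted p = 0.0162). Outside the naming rule, Npnt, nephronectin, the ligand of the α8 subunit, had 100, 454 and 410 UMIs in LC tumors and 150, 130 and 171 in IP + LC tumors and fell by 1.51 ± 0.32 (adjusted p = 0.00913). Fn1, fibronectin, the ligand of the α5 subunit, had 261, 331 and 221 UMIs against 793, 1018 and 944 and rose by 1.06 ± 0.31 (adjusted p = 0.0339). Npnt and Itga8 were both called lower and Fn1 and Itga5 both higher, pairs picked after their values were seen. Ligands of the αv subunit went both ways beside a value of 0.79 for Itgav that did not pass: Vtn fell, while Fn1 and Spp1, osteopontin, rose (1.45 for Spp1, 2.58 without LC replicate 1). Icam2 fell beside a value of 0.53 for Itgal that did not pass.

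Of 16 other basement membrane genes tested, 8 were lower and 1 was higher (against 19.6% and 16.8% of all genes). The other 7 did not pass, and the median was -0.74. Without LC replicate 1, 9 were lower and 4 were higher (against 28.7% and 28.3%). Col18a1 was among the 4, and its value went from 1.19 to 2.33. Ntn4, netrin 4, which binds laminin γ chains (-1.73, adjusted p = 0.00694), Egfl6, whose product binds the α8 subunit (-1.54, adjusted p = 0.00162) and Col4a4, a chain of the type IV collagen of the alveolar wall (-1.09, adjusted p = 0.0675), fell. The common type IV collagen chains did not pass, with Col4a1 at 0.33 ± 0.19 (adjusted p = 0.233; 0.36 and past the limit without LC replicate 1) and Col4a2 at 0.17 ± 0.18 (adjusted p = 0.529). Of laminin receptors other than integrins, 4 of 8 were lower (against 19.6% of all genes) and none was higher with all tumors, with a median of -0.74. Without LC replicate 1, 6 were lower (against 28.7%) and Rpsa, which encodes a ribosomal protein also described as a laminin receptor, was higher (0.52). Sgce, ε-sarcoglycan (-2.14, adjusted p = 0.000859), Bcam, the receptor for the laminin α5 chain (-1.44, adjusted p = 0.00192), and Cd151, the tetraspanin that joins laminin-binding integrins (-1.06, adjusted p = 0.00807), fell. Dag1, dystroglycan, had a value of -0.41 ± 0.25 (adjusted p = 0.255), and passed at -0.61 without LC replicate 1.

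**Figure D4:**
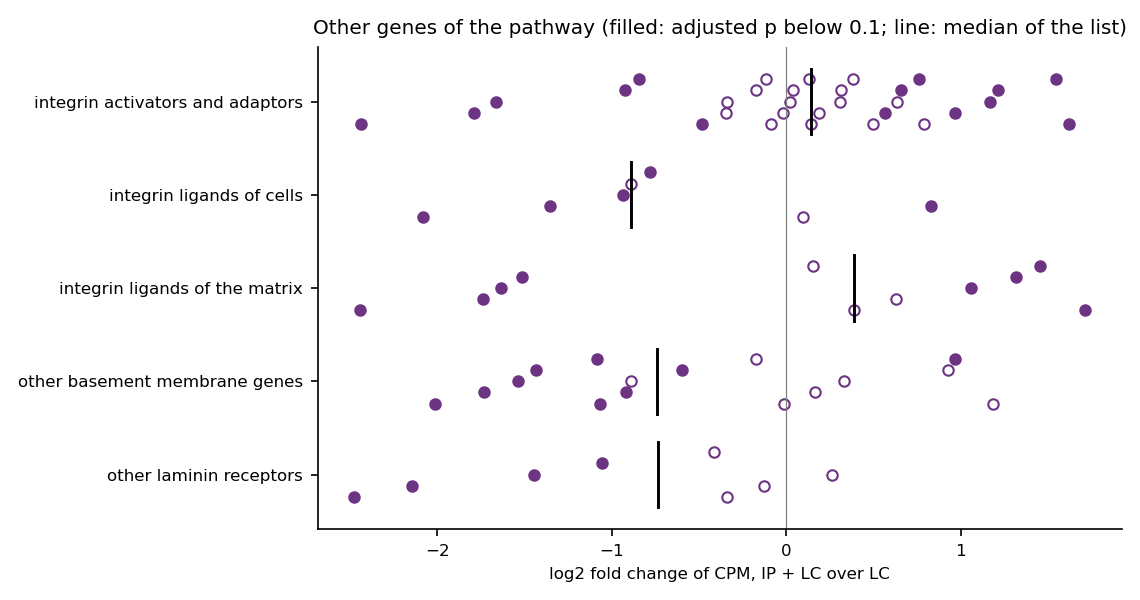
Log2 fold changes of CPM between IP + LC and LC tumors for the tested genes of 5 lists around the members, 1 circle per gene, filled where the adjusted p was below 0.1, with the median of each list as a line. Basement membrane genes and other laminin receptors have medians of -0.74, while activators and adaptors spread to both sides of 0.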

How the data were processed

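RNA of 6 tumors was measured, 3 LC and 3 IP + LC, grouped by the sample titles. The authors made 3′ libraries by bulk RNA barcoding, extracted UMIs with UMI-tools 1.1.1, trimmed reads with Trim Galore 0.6.7, aligned them to GRCm38 with HISAT2 2.2.1, assigned them to genes with featureCounts 2.0.1 and counted distinct UMIs. The annotation release and strand setting are not given in the sources used here. The deposited tables hold raw counts, 1 UMI count for each gene, with totals from 592733 to 1631066 per tumor. UMIs that differ by a sequencing error were not merged, which adds to counts. Counting precision is set by the molecules seen, and a member with few UMIs carries a larger error.

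From these counts, genes were kept by filterByExpr (minimum count 10, minimum total 15), scaled by TMM and tested between the groups in 1 fit over all 11240 genes with the quasi-likelihood test of edgeR 4.0.16 in R 4.3.3, without a block, with Benjamini-Hochberg adjustment and a limit of 0.1. The study names that limit and iDEP, and the submitters' processing notes list DESeq2 without its role. The procedure was tested on simulated data. The alternatives were other scalings and filters, DESeq2 1.42.0, voom of limma 3.58.1, a replicate block, thinning to 592733 UMIs and leaving out each tumor.

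Every member is named except 1 laminin chain, which is counted but not reported here. Of each list of related genes, the 3 called genes with the largest change were taken, given 10 or more UMIs in all libraries of the group where they were higher, and the other genes named from these lists were picked after their values were seen. The members and lists were chosen with earlier results of these data known. Levels of cell type markers were summed over protein-coding genes, the macrophage list also without Lyz2, an alternative added after the data were seen. Positions and overlaps came from GENCODE M21 on GRCm38, in which 13 members share exon bases with another gene. In 7 members the longest transcript has stretches of at least 81 bases and 95% identity elsewhere, at most 10.5% of its length (Itgb5). Some reads of all these members may thus be assigned to another gene or left out.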

Additional observations from a re-analysis of the deposited data

How the results depend on the processing

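The calls of Itga8, Itgam, Lama3, Lama4 and Lamb2 held under every alternative that tested them, as did the count of members called lower to within 1.5 times. The number called higher did not. It was 4 in the fit reported, 10 with library size scaling, 8 without a filter on low counts, 7 with limma voom, 1 after thinning to the smallest library, 2 at an adjusted p below 0.05, and 2 to 11 with 1 tumor left out. The lowest counts followed the removal of LC replicate 2, IP + LC replicate 2 or IP + LC replicate 3, and the highest that of LC replicate 1. The median of the matrix-binding integrins was -0.15 with library size scaling, -0.10 with at least 10 UMIs in every library, -0.0142 after thinning and -0.43 to -0.14 with 1 tumor left out, and that of the laminins was -0.63 to -0.14 with 1 tumor left out. The medians after thinning and with at least 10 UMIs cover fewer matrix-binding integrins. Members near 0 changed sign: Lamc1 was 0.0593 with library size scaling and 0.016 without a filter (-0.17 to 0.0035 with 1 tumor left out), Agrn -0.006 with upper quartile scaling, Itga3 -0.0325 with upper quartile scaling and -0.0311 after thinning (-0.13 to 0.24 with 1 tumor left out), and Itgb5 0.0028 after thinning. With 1 tumor left out, Itgb6 was -0.45 to 0.19. The cause was not tested.

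Over all genes, 4088 calls became 1661 after thinning, 6691 without LC replicate 1 and 2585 without LC replicate 2, and leaving out IP + LC replicate 1 or 2 gave 2660 and 2265. Library size scaling moved the median of all genes from 0.02 to 0.18 and the share of calls that were higher from 46.1% to 58.3%. Same-numbered tumors deviated from their group means with correlations of 0.026, -0.12 and 0.112 across genes. Tumors of unlike numbers gave -0.142 to 0.126. No pairing by number was seen, though 3 tumors per group cannot exclude it. With a replicate block, 3 members were higher, 6 were lower and 3410 genes were called in all. LC replicate 1 had the fewest UMIs. Of the members not called, Itgb2 passed under 6 of 15 alternatives, Itgav under 5 of 14, Lama5 under 4, Lamb1 and Itgal under 3 and Itga6 under 2 of 15.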
